A study of Homo sapiens with 12 samples.

Results

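The serum amyloid A and acute-phase genes were 9 of the 58302 genes in the deposited expression table: SAA1, SAA2, SAA4, the readthrough gene SAA2-SAA4, LCN2, C3, CFB, SLPI and PI3. They were taken by gene name, and the set had been chosen on their FPKM (fragments or reads per kilobase of gene, scaled to library depth) in these same libraries, so their levels are given as a description with no test. RNA of 3 established human prostate cell lines was measured by RNA-sequencing, with 4 libraries of the benign line BPH-1, 4 of the prostate cancer (PCa) line DU145 and 4 of the PCa line PC3. The labels give every line as wild type, list no treatment, and put all 3 in the same medium with fetal bovine serum, penicillin and streptomycin. They do not say whether the 4 libraries of a line came from separate cultures, so p-values measure only the spread between these libraries, which may be technical. Each group is 1 cell line, so a difference between groups is a difference between these lines.

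Serum amyloid A proteins are small apolipoproteins of the acute phase, which hepatocytes and inflamed epithelium release after interleukin 1, interleukin 6 and tumour necrosis factor act through NF-kB, C/EBP and STAT3. C3 is the central complement protein, and factor B (CFB) supplies the protease of the alternative pathway convertase that cleaves it. LCN2 is a lipocalin that binds bacterial siderophores, and SLPI and PI3 (elafin) are small inhibitors of neutrophil serine proteases that carry the whey acidic protein (WAP) domain.

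The 4 serum amyloid A genes lie together on chromosome 11 (GRCh38, coordinates of the deposited table). SAA1 (ENSG00000173432) spans 18266174 to 18269977 on the plus strand, SAA2 (ENSG00000134339) spans 18239223 to 18248643 on the minus strand, and SAA4 (ENSG00000148965) spans 18231349 to 18236893 on the minus strand. SAA2-SAA4 (ENSG00000255071) spans 18231423 to 18248635 on the minus strand, across both of its parts. In GENCODE 29, 267 of its 743 exon bases lie in SAA2 exons and the other 476 in SAA4 exons, so it has no exon base of its own and its reads are uncertain. The coding sequences of SAA1 and SAA2 have 366 bases each and differ at 11 of them (97.0% identical), with 186 identical bases in the longest run, so a read from an identical stretch could have been counted for either gene. The rest of their exons was not compared. The 120 bases that hold 10 of the 11 differences are shown because they are the only part of the coding sequence that separates the 2 genes well (bases 205 to 324 of the coding sequence, GENCODE 29 transcripts, differing bases in capitals).
SAA1: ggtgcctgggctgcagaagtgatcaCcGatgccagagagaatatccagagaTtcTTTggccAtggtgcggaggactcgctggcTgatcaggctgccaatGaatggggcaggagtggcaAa
SAA2: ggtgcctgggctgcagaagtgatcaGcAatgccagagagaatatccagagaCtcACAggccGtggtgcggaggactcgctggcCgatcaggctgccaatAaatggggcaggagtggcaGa

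LCN2 (ENSG00000148346) lies on chromosome 9 at 128149071 to 128153455, plus strand, and C3 (ENSG00000125730) on chromosome 19 at 6677704 to 6730562, minus strand. CFB (ENSG00000243649) lies on chromosome 6 at 31945650 to 31952084, plus strand. SLPI (ENSG00000124107, minus strand, 45252239 to 45254564) and PI3 (ENSG00000124102, plus strand, 45174876 to 45176544) are 75.7 kb apart on chromosome 20. RefSeq promoters (GRCh38.p14) were at hand for 3 of the 9 genes: LCN2, CFB and SAA4. Those of LCN2 and CFB are shown because their genes parted in PC3, where LCN2 was present and CFB was near 0. Each is the 250 bases before the RefSeq start site, on the plus strand, with matches to the searched motifs in capitals. Both windows lie inside the gene spans given above, which begin further upstream than that start site.
LCN2 promoter, chr9:128149203-128149452: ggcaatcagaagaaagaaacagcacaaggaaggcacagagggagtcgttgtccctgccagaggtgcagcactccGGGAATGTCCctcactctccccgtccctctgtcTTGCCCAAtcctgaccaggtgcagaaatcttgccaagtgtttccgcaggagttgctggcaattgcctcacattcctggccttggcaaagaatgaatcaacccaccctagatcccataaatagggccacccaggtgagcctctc
CFB promoter, chr6:31945845-31946094: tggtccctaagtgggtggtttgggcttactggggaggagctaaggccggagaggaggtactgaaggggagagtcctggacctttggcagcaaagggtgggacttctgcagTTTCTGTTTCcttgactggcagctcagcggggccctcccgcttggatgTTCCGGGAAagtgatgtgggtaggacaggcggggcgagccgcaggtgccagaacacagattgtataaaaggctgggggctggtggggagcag

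Both strands were searched for GGGAA, any 3 bases and CC (of the NF-kB type), TTCNNNGAA (STAT), TTTC, any 2 bases and TTTC (interferon response) and TTGCNNAA (C/EBP), of which none overlapped another in these windows. The LCN2 window held 1 NF-kB-type match, which starts 176 bases before the start site, and 1 C/EBP-type match 143 bases before it. The CFB window held 1 interferon-response-type match 140 bases before the start site and 1 STAT-type match 92 bases before it. The SAA4 window held 3 C/EBP-type matches and none of the others. Of 35116 RefSeq promoter windows of the same length, 6.02% held the NF-kB-type motif, 6.57% the STAT-type, 3.02% the interferon-response-type and 9.05% the C/EBP-type. A match is a description of the letters and not a measured binding site.

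Library depth, recovered from the steps between low FPKM values, was 12950670 to 16309568 reads. Of 8 epithelial markers, 7 were at 1 FPKM or more in every BPH-1 library, 4 in every DU145 library and 5 in every PC3 library. EPCAM stood at 0.166 to 0.573 FPKM and CDH1 at 0.0851 to 0.297 in DU145, against 57.7 to 63.2 and 16.3 to 44.6 in BPH-1. KRT5 and ESRP1 reached at most 0.499 and 0.608 FPKM in DU145. In PC3, CDH1 was at 0.427 to 1.42 FPKM, KRT5 at most 0.0381, ESRP1 at most 0.0676 and EPCAM at 6.92 to 11.1. The other markers, KRT7, KRT8, KRT18 and KRT19, were above 1 FPKM in every library of both PCa lines. KRT7 was at 158 to 260 FPKM in DU145 and 46.4 to 66.4 in PC3, against 0.873 to 1.40 in BPH-1. KRT19 was at 164 to 307 FPKM in PC3 and KRT18 at 52.8 to 99.2 in DU145, against 20.0 to 39.9 and 31.4 to 44.9 in BPH-1. Of 10 hepatocyte markers, 9 were below 1 FPKM in every library, and the exception was RBP4 in PC3 (13.4 to 17.5 FPKM). Markers of neutrophils and macrophages split the DU145 libraries. Of 10 such markers, 9 had more than 3 reads in every BPH-1 library and in DU145 replicates 1 and 2, but 2 (ITGAM and CD68) did in DU145 replicates 3 and 4 and in PC3. PTPRC, FCGR3B, CSF3R, TYROBP and MPO were at 0 reads in DU145 replicates 3 and 4 and in every PC3 library. Without CD68, which all libraries held, the summed FPKM of the list was 5.87 to 7.99 in BPH-1, 5.69 to 6.29 in DU145 replicates 1 and 2, 0.542 to 0.990 in DU145 replicates 3 and 4, and 0.0966 to 0.639 in PC3. The leukocyte marker MPO was at 0 reads in BPH-1 as well. For the 9 genes, folds between BPH-1 and DU145 that moved by over 1.5 times with DU145 replicates 3 and 4 alone are given beside the result.

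SAA1, the main inducible serum amyloid A gene, was highest in BPH-1, lower in DU145 and almost absent in PC3. It stood at 27.6, 119, 13.6 and 30.7 FPKM in BPH-1 replicates 1 to 4, at 12.6, 15.4, 3.92 and 5.36 in DU145, and at 0.0549, 0.311, 0.257 and 0.165 in PC3. These PC3 values rest on 1 to 6 reads a library, against 296 to 2562 reads in BPH-1. The mean FPKM was 47.9 in BPH-1, 9.32 in DU145 and 0.197 in PC3, a 243-fold difference between BPH-1 and PC3 and a 47.3-fold difference between DU145 and PC3, and neither pair of groups overlapped. BPH-1 and DU145 overlapped, because BPH-1 replicate 3 lay below DU145 replicate 2, and their means differed 5.13-fold. In bulk RNA, fewer cells that express a gene and less RNA per cell cannot be told apart.

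BPH-1 replicate 2 carried much of the SAA1 mean. Without it, BPH-1 was 122-fold above PC3 and 2.57-fold above DU145. SAA1 was also higher in DU145 replicates 1 and 2 (mean 14.0 FPKM), which held leukocyte markers, than in replicates 3 and 4 (mean 4.64), which lacked most of them. Against the latter pair, BPH-1 was 10.3-fold higher. The 47.3-fold difference between DU145 and PC3 is also smaller with that pair alone, at means of 4.64 and 0.197 FPKM. Within BPH-1 the summed FPKM of the 10 markers was 10.3, 14.6, 10.8 and 10.7 in replicates 1 to 4. Without CD68 the sum lay between 5.87 and 7.99. SAA1 varied 8.80-fold there and was also highest in replicate 2. The part of the leukocyte markers in these results was not tested.

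SAA2, the close paralog of SAA1, followed the same order of lines at a lower level. Its BPH-1 values were 4.55, 20.3, 2.29 and 3.63 FPKM, its DU145 values 0.914, 1.15, 0.0640 and 0.614, and no PC3 library held a read. The mean was 11.2-fold higher in BPH-1 than in DU145 (5.09-fold without BPH-1 replicate 2, and 22.7-fold with DU145 replicates 3 and 4 alone). It was at least 104-fold higher than in PC3 against a floor of 3 reads per library, or at least 47.2-fold without BPH-1 replicate 2. No DU145 library reached the lowest BPH-1 library. In BPH-1 the SAA1 FPKM was 5.87 to 8.46 times that of SAA2 in each library, with reads between these near-identical genes divided by the authors' counting in a way not given in the sources used here. These FPKM rest on gene lengths of 1405 bases for SAA1 and 3037 for SAA2, so the ratio in reads was smaller. SAA1 had 599, 2562, 296 and 673 reads in BPH-1 replicates 1 to 4, and SAA2 had 213, 943, 108 and 172.

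SAA4, the constitutive member of the family in liver, was barely detected. It had 12, 18, 5 and 4 reads in the BPH-1 libraries (1.07, 1.62, 0.443 and 0.353 FPKM), 1 or 2 reads in each DU145 library and none in PC3. It failed the filter on low values in all 3 comparisons, so no fold is given for DU145, and the bound against PC3 was at least 2.82-fold. SAA2-SAA4 stood at 3.93, 19.8, 2.43 and 4.83 FPKM in BPH-1, on 28 to 224 reads, and at 1.25, 1.24, 0.698 and 0.502 in DU145, on 5 to 15 reads. It had no read in PC3, so BPH-1 was at least 25.6-fold higher than PC3, and it was 8.40-fold higher than DU145. Without BPH-1 replicate 2 these became at least 12.3-fold and 4.05-fold, and with DU145 replicates 3 and 4 alone BPH-1 was 12.9-fold above DU145. As all of its exon bases belong to SAA2 or SAA4, these reads are not independent of theirs.

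**Figure D1:**
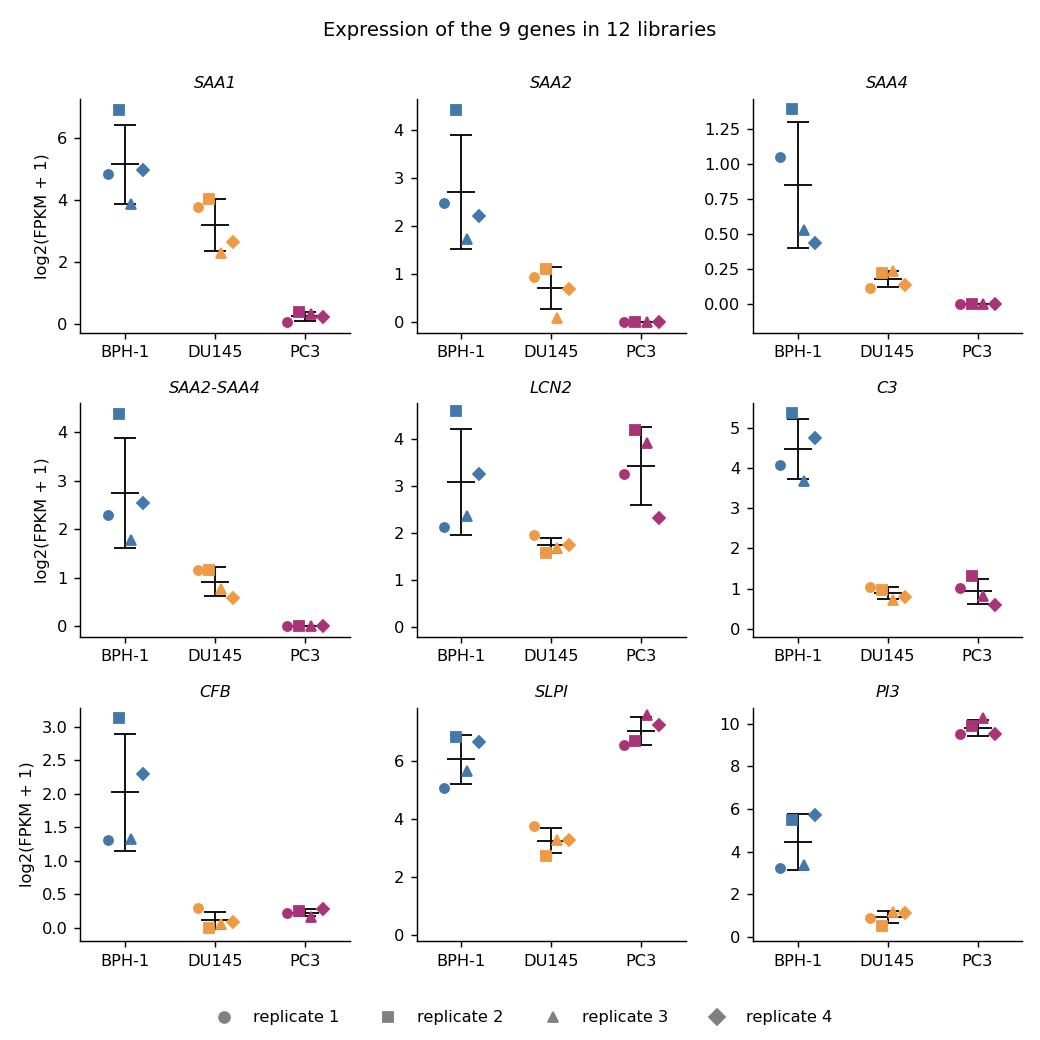
Expression of the 9 genes as log2(FPKM + 1) on the vertical axis, with a panel per gene and the 3 lines on the horizontal axis; each symbol is 1 library, the horizontal mark is the mean of 4 libraries and the bars are ± 1 SD. The SAA genes, C3 and CFB are highest in BPH-1, LCN2 and SLPI are lowest in DU145, and PI3 is highest in PC3 (727 to 1241 FPKM), with BPH-1 replicate 2 at or near the top of its group in every panel.

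LCN2 did not follow the serum amyloid A genes into PC3. It was 3.39, 23.3, 4.11 and 8.55 FPKM in BPH-1, 2.87, 1.97, 2.23 and 2.37 in DU145, and 8.50, 17.3, 14.2 and 4.04 in PC3. BPH-1 and PC3 overlapped, with means of 9.85 and 11.0 FPKM, and both lay above every DU145 library. The mean in DU145 (2.36 FPKM) was 4.18-fold below BPH-1 and 4.67-fold below PC3. Without BPH-1 replicate 2 the BPH-1 mean was 2.27-fold above DU145, and the PC3 mean was 2.06-fold above BPH-1. The BPH-1 mean was the higher of the 2 without PC3 replicate 2 (1.10-fold), BPH-1 replicate 1 (1.09-fold) or BPH-1 replicate 3 (1.07-fold).

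C3 and CFB, the substrate and the protease subunit of the alternative pathway convertase, were both high only in BPH-1 among these lines. C3 stood at 15.9, 40.3, 11.9 and 25.9 FPKM in BPH-1, at 1.07, 0.956, 0.648 and 0.733 in DU145, and at 1.02, 1.496, 0.763 and 0.496 in PC3. Its BPH-1 mean was 27.5-fold above DU145 and 24.9-fold above PC3 (21.0-fold and 18.9-fold without BPH-1 replicate 2), while the 2 PCa lines overlapped. CFB stood at 1.49, 7.74, 1.51 and 3.93 FPKM in BPH-1, at 0.228, 0, 0.0352 and 0.0567 in DU145, and at 0.159, 0.182, 0.110 and 0.210 in PC3. The CFB values of DU145 rest on 0 to 34 reads and those of PC3 on 14 to 25, against 211 to 1087 in BPH-1. BPH-1 was 45.8-fold above DU145 and 22.2-fold above PC3 for CFB (28.9-fold and 14.0-fold without BPH-1 replicate 2), and DU145 and PC3 overlapped. The DU145 mean rested on replicate 1, and BPH-1 was 120-fold above the other 3 DU145 libraries and 79.8-fold above replicates 3 and 4.

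The 2 WAP-domain inhibitors were the members with most RNA in PC3. SLPI was 32.3, 114, 49.9 and 101 FPKM in BPH-1, 12.5, 5.66, 8.81 and 8.63 in DU145, and 93.2, 103, 194 and 151 in PC3. The means were 74.3, 8.91 and 135 FPKM, so DU145 was 8.34-fold below BPH-1 and 15.2-fold below PC3 without overlap. PC3 and BPH-1 overlapped, with PC3 1.82-fold higher (2.22-fold without BPH-1 replicate 2). PI3 had the widest range of the 9 genes, at 8.43, 43.7, 9.27 and 51.6 FPKM in BPH-1, 0.856, 0.425, 1.24 and 1.16 in DU145, and 727, 959, 1241 and 729 in PC3. No 2 lines overlapped for PI3, whose mean of 914 FPKM in PC3 ranked 32 among all genes of that line, 32.3-fold above BPH-1 and 994-fold above DU145, where it rested on 4 to 11 reads.

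In PC3 against BPH-1, 6 of the 9 genes (the SAA genes, C3 and CFB) were lower with no overlap between the libraries and PI3 was higher with none. Of all 16407 genes tested, 38.6% were lower in PC3 and 25.8% higher with no overlap. In DU145 against BPH-1, 8 of 9 were lower with no overlap and SAA1 overlapped, beside 30.6% lower and 28.8% higher among 17017 genes tested. In PC3 against DU145, the 4 SAA genes were lower and LCN2, SLPI and PI3 were higher with no overlap, beside 27.5% lower and 19.1% higher among 16421 genes. Since the same levels chose the genes, nothing is read from these counts. The filter on low values was passed by 8 of the 9 genes in each comparison with BPH-1 and by 6 in PC3 against DU145, where SAA2 and SAA2-SAA4 failed it beside SAA4.

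On the scale of log2(FPKM + 1), SAA1 differed by -4.90 ± 0.64 (standard error, n = 4 per line) between PC3 and BPH-1 and by -1.96 ± 0.76 between DU145 and BPH-1. C3 differed from BPH-1 by -3.54 ± 0.40 in PC3 and by -3.59 ± 0.38 in DU145. For PI3 the difference was 5.35 ± 0.69 in PC3 and -3.53 ± 0.68 in DU145, and for LCN2 it was 0.34 ± 0.70 in PC3 and -1.35 ± 0.57 in DU145. The added 1 shrinks the differences of genes near 0, such as CFB (-1.80 ± 0.44 in PC3).

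**Figure D2:**
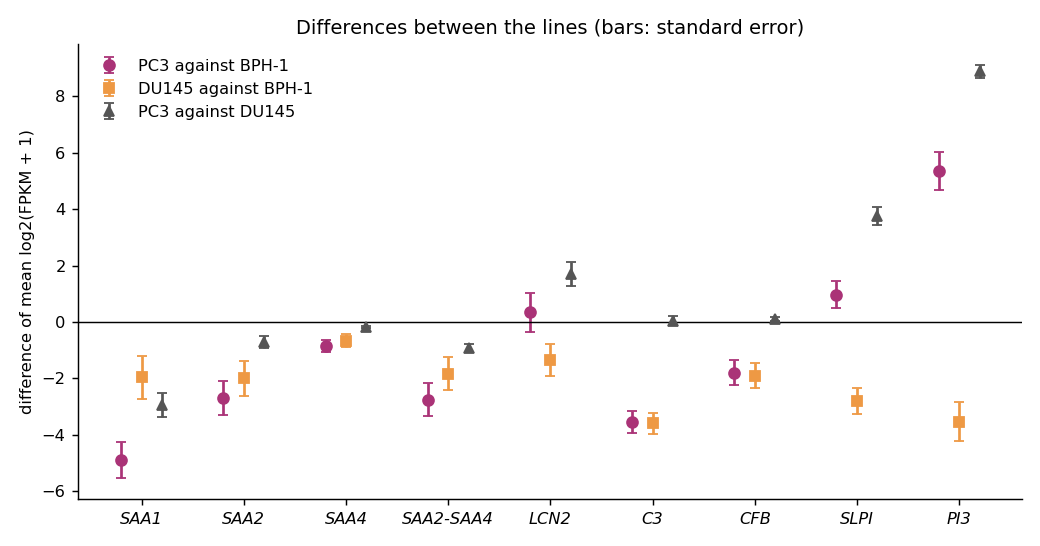
Differences of the mean log2(FPKM + 1) between lines on the vertical axis for each of the 9 genes on the horizontal axis, with bars of ± 1 standard error over 4 libraries per line. Symbols and colours stand for the 3 comparisons; PI3, SLPI and LCN2 lie above 0 in PC3 against BPH-1, and every gene lies below 0 in DU145 against BPH-1.

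Within BPH-1 the 9 genes varied widely between libraries. The highest library was 8.80-fold above the lowest for SAA1, 8.88-fold for SAA2, 8.14-fold for SAA2-SAA4, 6.88-fold for LCN2, 6.13-fold for PI3, 5.20-fold for CFB, 4.60-fold for SAA4, 3.54-fold for SLPI and 3.40-fold for C3. Of 11360 genes with at least 1 FPKM in every BPH-1 library, the median was 1.35-fold and 1.04% spread 4-fold or more. Replicate 2 was the highest library for 8 of the 9 genes (30.0% of the 11360), with PI3 highest in replicate 4. Replicates 2 and 4 were both above replicates 1 and 3 for 7 genes, all but SAA2 and SAA4, a pattern shown by 22.2% of the 11360. These levels entered the choice of the set, so the counts are a description.

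Of 87 listed genes with more than 3 reads in every BPH-1 library, 13 spread 4-fold or more, 10 of them with replicate 2 the highest. The share of 1.04% is for all genes at 1 FPKM or more, and none is given at this lower threshold, so nothing is read from the count. Some of the 13 had few reads in their lowest library, such as ITIH4 and C5 with 4 and C5AR1 with 5. Among the 13 were the metalloreductase gene STEAP4 (0.330, 2.85, 0.181 and 0.458 FPKM) and SERPINA1 (1.24, 3.03, 0.646 and 0.789), while MMP9 was highest in replicate 1 (19.2, 10.5, 5.98 and 4.25). Of 6 epithelial antimicrobial genes at 1 FPKM or more in every BPH-1 library, 3 spread 4-fold or more, namely S100A7 (5.44, 84.7, 4.57 and 29.2 FPKM), S100A9 (80.6, 636, 87.2 and 330) and S100A8 (3.91, 28.9, 4.40 and 17.6), each highest in replicate 2 and next in replicate 4. Of 21 cytokine, receptor and adaptor genes, 2 did, namely the interleukin 1 receptor antagonist IL1RN (1.33, 7.96, 1.52 and 4.07) and the epidermal cytokine IL36G (2.20, 10.5, 1.39 and 2.72). The interleukin genes IL1A (179, 141, 134 and 64.6 FPKM) and IL1B (33.5, 35.7, 24.0 and 12.2) spread less than 3-fold and were lowest in replicate 4. None of 20 transcription factors and feedback inhibitors spread 4-fold.

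**Figure D3:**
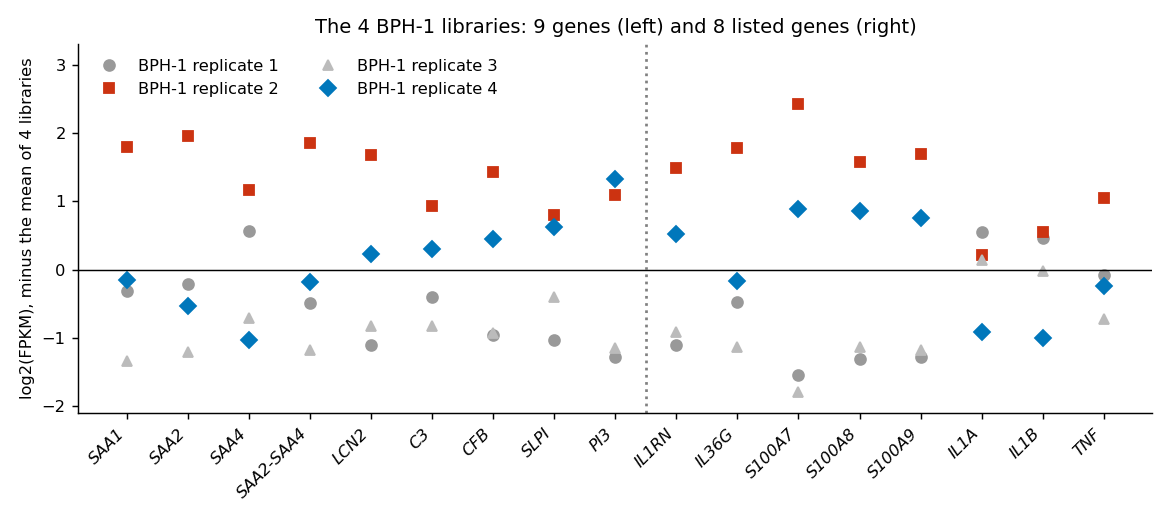
log2(FPKM) of each gene in the 4 BPH-1 libraries, minus its mean over them, on the vertical axis; the 9 genes are left of the dotted line and 8 listed genes right of it, and each symbol is 1 library. Replicate 2 is the highest for 8 of the 9 genes and for IL1RN, IL36G and the S100 genes, while IL1A and IL1B are lowest in replicate 4.

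Interleukin 1 and the interleukin 6 family, the cytokines known to induce acute-phase genes, were not at the same levels in the 3 lines. Of 32 listed cytokines, receptors and adaptors, 31 were tested in PC3 against BPH-1, where 6 rose and 20 fell at a limma adjusted p under 0.05, beside 27.1% of all genes called higher and 40.4% called lower. Of all calls in this comparison 40.2% were higher in PC3, against 55.3% with upper-quartile scaling and 30.3% with libraries set to equal FPKM sums, and the list gave 10 rises and 19 falls with the former and 5 and 20 with the latter. Their median log2 difference was -0.70, against -0.13 over all genes. Some genes, such as IL36G at 0 FPKM in PC3, passed the filter through BPH-1 alone and could only fall. A stricter filter asked for 10 reads at the median depth in every compared library. With it, 6 of 22 tested genes rose and 11 fell, and 42.9% of all calls were higher. IL1A fell most, from 64.6 to 179 FPKM in BPH-1 to at most 0.291 in PC3 (-6.77 ± 0.28 on the log2 scale, adjusted p = 9.08e-08). IL6ST, the shared signalling chain of the interleukin 6 family, fell by 2.58 (adjusted p = 1.79e-05), and LIF, a cytokine of that family, rose by 2.98 (adjusted p = 2.18e-07). IL1B stood at 22.5 to 91.8 FPKM in PC3 and 12.2 to 35.7 in BPH-1 (adjusted p = 0.0793).

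In DU145 against BPH-1, 7 of 31 rose and 17 fell, beside 30.3% of all genes called higher and 32.4% called lower, with a median of -0.53 against -0.03. Here too some genes, such as IL36G (at most 0.0987 FPKM in DU145), passed the filter through BPH-1 alone and could only fall. With the stricter filter 7 of 20 tested genes rose and 6 fell, and 48.9% of all calls were higher. The larger count of falls was thus not kept, and nothing is read from it. IL1A fell by 6.66 (adjusted p = 2.41e-07), IL1B fell by 4.53 (adjusted p = 1.51e-06) to at most 0.200 FPKM, and TLR2, a receptor of bacterial lipoproteins, fell by 2.15 (adjusted p = 1.89e-05). LIF rose by 3.89 (adjusted p = 2.44e-07) to between 71.2 and 103 FPKM, and the tumour necrosis factor receptor TNFRSF1B rose by 2.01 (adjusted p = 2.19e-05). The oncostatin M receptor OSMR rose by 1.37 with overlapping libraries (adjusted p = 0.0428), a call lost with DU145 replicates 3 and 4 alone (adjusted p = 0.158), with equal FPKM sums (0.0798) and with voom on recovered reads (0.0606). In PC3 against DU145, 4 of 23 rose and 8 fell, beside 20.0% higher and 28.3% lower over all genes, with a median of -0.08 against -0.05. IL1B was 5.51 higher in PC3 (adjusted p = 4.70e-06), and IL6 was 1.16 lower (adjusted p = 0.00193), at 0.179 to 0.567 FPKM against 1.24 to 3.15 in DU145.

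The transcription factors of the acute phase were not all at like levels either. STAT3, which carries the interleukin 6 signal, was at 13.2 to 18.4 FPKM in BPH-1 and 21.2 to 25.5 in DU145 but at 0.0315 to 0.0588 in PC3 (-3.96 ± 0.12 against BPH-1, adjusted p = 2.15e-08). Of 20 tested members of the list of factors and feedback inhibitors, 4 rose and 11 fell in PC3 against BPH-1 (median -0.52 against -0.13), beside 27.1% and 40.4% of all genes. With upper-quartile scaling 7 rose and 8 fell, and with equal FPKM sums 2 rose and 12 fell. In DU145 against BPH-1, 8 rose and 4 fell (median 0.50 against -0.03), beside 30.3% and 32.4%, with 11 and 3 under upper-quartile scaling and 5 and 5 with equal FPKM sums. In PC3 the NF-kB subunit gene REL fell by 1.99 (adjusted p = 3.06e-06) and TNFAIP3, a feedback inhibitor of NF-kB, fell by 2.31 (adjusted p = 2.05e-06). Both also fell in DU145 against BPH-1, REL by 1.84 (adjusted p = 2.04e-05) and TNFAIP3 by 2.54 (adjusted p = 9.76e-05). Neither was called in PC3 against DU145 (adjusted p = 0.536 and 0.566). DU145, where C3 and CFB were near 0 and SAA1 was below its BPH-1 mean, had the highest levels of several of these factors. NFKB2 rose by 1.90 there (adjusted p = 3.07e-05), to between 62.2 and 114 FPKM against 21.7 to 27.1 in BPH-1.

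The C/EBP genes CEBPB and CEBPD rose in DU145 against BPH-1 by 1.34 (adjusted p = 0.000559) and 1.48 (adjusted p = 0.00014). CEBPB stood at 74.1 to 134 FPKM in DU145, 31.9 to 49.9 in BPH-1 and 18.8 to 23.4 in PC3. NFKBIZ, an inducible NF-kB cofactor, was at 5.15 to 11.1 FPKM in BPH-1, 0.515 to 2.33 in DU145 and 5.58 to 13.2 in PC3. It fell in DU145 against BPH-1 by 1.71 (adjusted p = 0.000571) and was 2.20 higher in PC3 than in DU145 (adjusted p = 0.000318). In PC3 against DU145, 3 of 20 rose and 10 fell (median -0.74 against -0.05), beside 20.0% and 28.3% of all genes. The falls were led by STAT3 (-4.59, adjusted p = 4.44e-08) and CEBPB (-2.13, adjusted p = 2.51e-05).

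**Figure D4:**
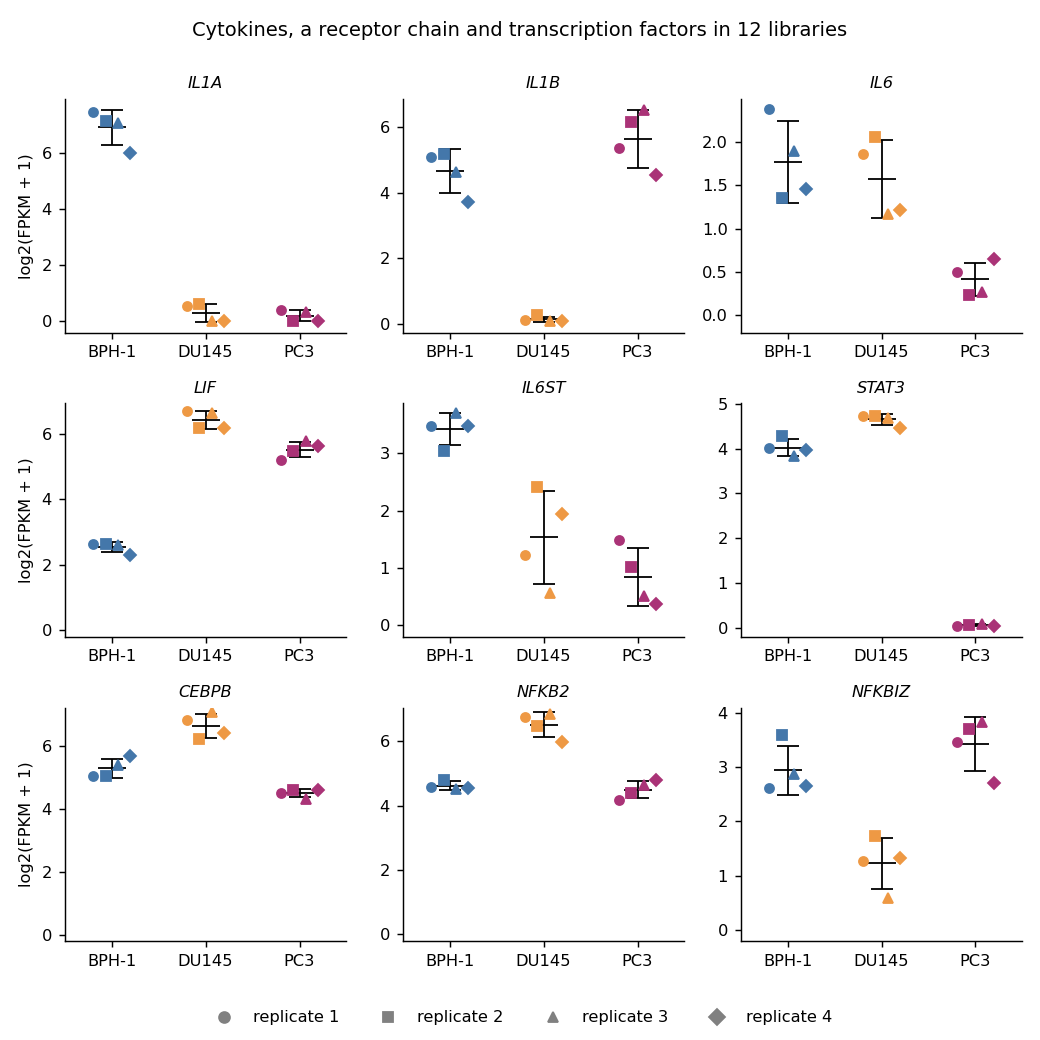
log2(FPKM + 1) of 3 cytokines of inflammation (IL1A, IL1B, IL6), LIF, the receptor chain IL6ST and 4 transcription regulators on the vertical axis, by line on the horizontal axis; each symbol is 1 library, the horizontal mark the mean and the bars ± 1 SD over 4 libraries. IL1A is high in BPH-1 alone among the lines, IL1B in BPH-1 and PC3, STAT3 is near 0 in PC3, and CEBPB and NFKB2 are highest in DU145.

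The wider set of acute-phase proteins made in liver was mostly silent. Of 24 other acute-phase proteins, 4 passed the filter in PC3 against BPH-1, 6 in DU145 against BPH-1 and 4 in PC3 against DU145. CRP, APCS, HP, FGB and LBP had no read in any library. PTX3, a pentraxin made outside the liver, was the one that rose in PC3 against BPH-1, by 3.63 (adjusted p = 3.59e-07), to between 24.0 and 41.9 FPKM against 1.35 to 2.40, while LRG1 and SERPINA1 fell (-1.03 and -0.80, adjusted p = 0.00024 and 0.015; list median -0.71 against -0.13). In DU145 against BPH-1, SERPINA3 rose by 0.56 (adjusted p = 1.78e-05) at 0.428 to 0.639 FPKM and LRG1 fell by 1.08 (adjusted p = 0.000178), with a list median of 0.02 against -0.03. In PC3 against DU145, PTX3 rose by 3.20 (adjusted p = 4.11e-06) and SERPINA1 and SERPINA3 fell (list median -0.25 against -0.05). SERPINA3 was at most 0.0150 FPKM in BPH-1 and 0 in PC3, and LRG1 at most 0.154 in DU145 and 0.243 in PC3. Both passed the filter through the line where they were higher, so nothing is read from their direction. With the stricter filter 0 of 2 tested genes were called in DU145 against BPH-1, and 1 rose and 1 fell in each other comparison.

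Among the partners of C3 and CFB, factor D (CFD), the protease that cleaves factor B, stood at 5.14 ± 1.38 FPKM in BPH-1, 9.49 ± 3.10 in DU145 and 9.34 ± 2.44 in PC3 (SD, n = 4). It rose against BPH-1 in DU145 by 0.75 (adjusted p = 0.0206) and in PC3 by 0.74 (adjusted p = 0.0131), the latter lost with equal FPKM sums (adjusted p = 0.0577). C2 and C5 had mean FPKM under 1 in all 3 lines, and CFI had at most 23 reads in a library. Of 34 listed complement genes, 14 were tested in PC3 against BPH-1 and 15 in DU145 against BPH-1. In PC3, 5 rose and 6 fell, beside 27.1% and 40.4% of all genes (median 0.10 against -0.13). These counts were 8 and 6 with upper-quartile scaling and 4 and 6 with equal FPKM sums. In DU145, 4 rose and 3 fell, beside 30.3% and 32.4% of all genes (median -0.01 against -0.03).

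The cell-surface inhibitor CD46 fell in PC3 against BPH-1 by 1.28 (adjusted p = 0.000899) and in DU145 by 1.44 (adjusted p = 0.00153), and clusterin (CLU) rose by 1.06 (adjusted p = 0.00486) and 1.68 (adjusted p = 0.000382). C1R, a protease of the first component, fell by 0.75 in PC3 (adjusted p = 0.0124) and by 0.90 in DU145 (adjusted p = 0.00577). Its partner C1S fell by 0.76 in PC3 (adjusted p = 0.00432) and gave -0.25 in DU145 (adjusted p = 0.264). In PC3 against DU145, none of 13 tested complement genes rose and 3 fell (SERPING1, VTN and C1S, -1.32, -0.76 and -0.51, adjusted p at most 0.000168), with a median of 0.02 against -0.05. Of all genes 20.0% were called higher and 28.3% lower. By limma 1 was higher at an unadjusted p under 0.05, voom on recovered reads also called 0, and with DU145 replicates 3 and 4 alone 1 rose and 4 fell. SERPING1 was at 0 FPKM in PC3 and VTN at most 0.0738, so both passed the filter through DU145 alone and could only fall. Nothing is read from their direction. With the stricter filter 1 of 7 tested genes fell.

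SLPI and PI3 belong to a cluster of WAP-domain genes on chromosome 20, few of which were detected. Of 19 genes of this cluster and of neutrophil protease control, 3 were tested in PC3 against BPH-1, and 2 in each of the other comparisons. WFDC2 fell against BPH-1 in PC3 by 1.81 (adjusted p = 0.000325) and in DU145 by 1.43 (adjusted p = 0.00149), from 1.26 to 4.90 FPKM, and WFDC3 rose in PC3 by 0.46 at 0.392 to 0.683 FPKM (adjusted p = 0.000489). WFDC2 was at most 0.0321 FPKM in PC3 and 0.384 in DU145, and WFDC3 at most 0.197 in BPH-1. Both passed the filter through the line where they were higher, so nothing is read from their direction. With the stricter filter only 1 gene of the list, SERPINB1, was tested in each comparison. The protease inhibitor SERPINB1 rose by 0.69 in PC3 (adjusted p = 0.0389) and by 0.71 in DU145 (adjusted p = 0.018), the latter lost with DU145 replicates 3 and 4 alone (adjusted p = 0.109). Both calls were lost with equal FPKM sums (adjusted p = 0.145 in PC3 and 0.0836 in DU145). List medians were 0.46 in PC3 against BPH-1, -0.36 in DU145 against BPH-1 and 0.15 in PC3 against DU145, beside -0.13, -0.03 and -0.05 over all genes. ELANE, the neutrophil elastase that SLPI and elafin inhibit, had no read in BPH-1 or PC3 and at most 4 reads in a DU145 library.

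Of 9 receptors and binding partners of the encoded proteins, 8 were tested in PC3 against BPH-1 (1 rose and 4 fell, median -0.15 against -0.13), beside 27.1% and 40.4% of all genes. In DU145 against BPH-1 7 were tested (1 rose and 2 fell, median -0.10 against -0.03), beside 30.3% and 32.4%. In PC3 against DU145 4 were tested (2 rose and 1 fell, median -0.02 against -0.05), beside 20.0% and 28.3%. With the stricter filter 1 of 3 tested genes rose and 0 fell in each comparison with BPH-1. MMP9, a gelatinase that forms a complex with LCN2, stood at 9.97 ± 6.66 FPKM in BPH-1 and fell by 3.17 in PC3 (adjusted p = 4.24e-05) and by 3.14 in DU145 (adjusted p = 4.91e-05). It had 1 to 3 reads in a PC3 library and 0 to 10 in a DU145 library, so it passed the filter through BPH-1 and could only fall. The lipocalin receptor gene SLC22A17 did not pass the test in any comparison, at 0.808 ± 0.178, 0.874 ± 0.224 and 0.645 ± 0.097 FPKM in BPH-1, DU145 and PC3. SCARB1, a lipoprotein receptor that also takes up serum amyloid A, rose in PC3 by 1.30 (adjusted p = 1.94e-05). FPR1, a leukocyte receptor, was at 1.08 to 1.63 FPKM in BPH-1 and 1.29 and 0.886 in DU145 replicates 1 and 2, but at 1 read or none in DU145 replicates 3 and 4.

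Of 19 listed epithelial antimicrobial genes, 7 were tested in PC3 against BPH-1 and 7 fell, beside 40.4% of all genes called lower, and 7 were tested in DU145 against BPH-1 and 5 fell, beside 32.4%. List medians were -3.46 against -0.13 and -2.54 against -0.03. S100A7, S100A8, S100A12 and RNASE7 had no read in PC3 and passed the filter there through BPH-1 alone, so they could only fall, and nothing is read from these counts. With a stricter filter 1 gene was called in PC3 and 0 were tested in DU145. S100A9 fell by 5.49 in PC3 (adjusted p = 3.72e-05) and RNASE7, a skin ribonuclease, by 3.62 (adjusted p = 1.40e-07), from 8.87 to 15.4 FPKM to 0 reads. S100A8, S100A9, S100A12 and LYZ are also made by leukocytes and moved with the marker split in DU145. LYZ was at 7.61 to 10.1 FPKM in BPH-1, 7.76 and 8.63 in DU145 replicates 1 and 2, and 0 in replicates 3 and 4. Its DU145 difference had an adjusted p of 0.0669 with all 4 libraries and 2.91e-05 with replicates 3 and 4 alone, where 7 of 8 tested genes fell. In PC3 against DU145 0 of 2 tested genes were called by limma, with 0 at an unadjusted p under 0.05 and 0 by voom, and with DU145 replicates 3 and 4 alone S100A9 was higher in PC3 (2.13, adjusted p = 0.000576).

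**Figure D5:**
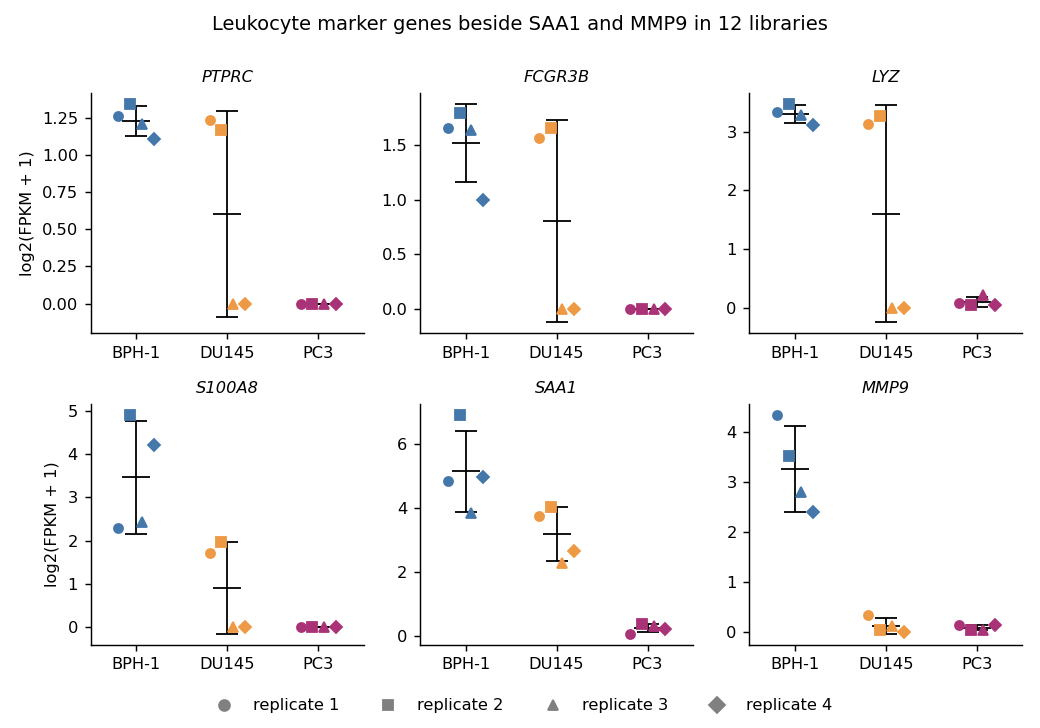
log2(FPKM + 1) of 4 genes known from leukocytes (PTPRC, FCGR3B, LYZ, S100A8), SAA1 and MMP9 on the vertical axis, by line on the horizontal axis; each symbol is 1 library, the horizontal mark the mean and the bars ± 1 SD over 4 libraries. PTPRC, FCGR3B, LYZ and S100A8 are present in BPH-1 and in DU145 replicates 1 and 2 and at 0 in DU145 replicates 3 and 4, and SAA1 is higher in the former DU145 pair, while MMP9 is low in all 4 DU145 libraries.

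The genes outside the set with the most similar pattern were found by the root mean square difference of log2(FPKM + 1), each gene centred on its mean over the 12 libraries, among 12275 protein-coding genes. For C3 they were DDX60 (0.22), HCAR2 (0.27) and GBP1 (0.28), each at 5.02 to 22.0 FPKM in the BPH-1 libraries and at most 0.320 in a library of the PCa lines. For CFB they were IL1RN (0.12), ABCA12 (0.18) and SCEL (0.19), and for LCN2 they were S100P (0.51), AS3MT (0.53) and CHMP2B (0.53). SAA1 was nearest to PPP1R14C (0.74), EGR1 (0.75) and PTGFRN (0.76). SLPI was nearest to MARCKSL1 (0.38), PCSK1N (0.43) and DEF6 (0.46). PI3, the gene with the widest range, was nearest to HOXB13 (1.34), FZD8 (1.51) and SULF2 (1.53), which all had their highest FPKM in PC3 (74.3, 144 and 55.7 on average).

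HPS5, 8.7 kb from SAA1, stood at 5.01 FPKM on average in BPH-1, 2.26 in DU145 and 1.93 in PC3, and GTF2H1, 52.3 kb away, at 5.86, 2.19 and 2.32. RNA5SP334, a pseudogene of 118 bases inside SAA1 on the same strand, followed it at 2.20, 0.556 and 0.164, and its reads may be those of SAA1. GPR108, which overlaps C3 by 649 bases on the same strand, was lowest in BPH-1 (4.28, 13.6 and 8.66), while AC008760.2, which lies within C3 on the same strand, was at 1.16, 0.0507 and 0. NELFE, 2 bases from CFB on the other strand, was at 13.6, 29.1 and 16.1 FPKM. SDC4, 70.7 kb from SLPI, was lowest in PC3 (238, 206 and 92.3), where SLPI and PI3 were highest.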

How the data were processed

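RNA of BPH-1, DU145 and PC3 (4 libraries each) was sequenced from TRIzol extracts with a NEB library kit. The authors deposited 1 table of normalized values for 58302 genes, whose form was that of FPKM, although the header names no unit. The submitters' processing notes name CASAVA 1.8, HISAT2 2.1.0, edgeR (no version) and GRCh38; the counting program, the use of strand and filters are not given in the sources used here. FPKM times gene length gave whole reads (within 0.02 of a read) for 96.2% to 97.0% of low values per library when length was the sum of distinct exons in GENCODE 29, and this gave each library's depth (12950670 to 16309568 reads). For SAA1 the length was taken from the steps of its own values. The 263 genes without a length were not tested. Floors of 3 reads per library cover counting error only.

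Lines were compared in pairs with limma 3.58.1 (R 4.3.3, intensity trend) on log2(FPKM + 1), with only the compared lines in the fit. Genes needed 10 reads at the median depth in 4 libraries and 15 in all, and p-values were adjusted over all tested genes (Benjamini-Hochberg, under 0.05). A fold between lines is the ratio of mean FPKM, and a difference is that of mean log2(FPKM + 1). The 9 genes and the gene lists were chosen with earlier results of these data known. Named list genes were those called, up to 3 largest rises and falls per list and comparison, and direct partners of the encoded proteins, of which 1 is not reported here. The list genes in the BPH-1 spread (S100A7, S100A8, S100A9, IL1RN, IL36G, STEAP4), C1R in PC3 and C1S in DU145, the list genes given by range and the leukocyte genes were named after their values were seen. The 12 columns matched samples by name, and 0 were left unused. No pair of libraries of a line looked like 1 library deposited again, since the 18 pairs gave chi-square values of 17.3 to 214.6 per gene. Other software was Python 3.11.15, numpy 2.4.6, pandas 2.3.3 and matplotlib 3.10.9, and the scripts were tested on simulated data. Alternatives were other filters, pseudocount, scalings, a replicate block, 1 fit over the 3 lines, voom on recovered reads, a fold threshold and leaving out each library.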

Additional observations from a re-analysis of the deposited data

Results flagged for a closer look

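In groups of 4 libraries, 1 library stood far from the other 3 by Dixon's test in 17 of 155 groups. Chance gives about 5% for independent groups. These groups share libraries, and SAA2-SAA4 shares exon bases with its parts, so nothing is read from the count. For the 9 genes, whose levels chose the set, the flag is a description and not a test. Among them, BPH-1 replicate 2 stood apart for SAA1 (119 FPKM, others 13.6 to 30.7), SAA2 (20.3, others 2.29 to 4.55) and SAA2-SAA4 (19.8, others 2.43 to 4.83). The same library stood apart for IL36G (10.5, others 1.39 to 2.72), TLR2 (6.71, others 3.55 to 4.06), C5 (0.340, others 0.0382 to 0.0854), REL (2.96, others 3.94 to 4.04) and MAZ (3.64, others 4.26 to 4.29). In BPH-1, LIF was 3.91 FPKM in replicate 4 (others 5.08 to 5.20) and IL17RC was 0.257 in replicate 3 (others 0.469 to 0.480).

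In DU145, IL1B was 0.200 FPKM in replicate 2, STAT3 was 21.2 in replicate 4, SERPINA3 was 0.639 in replicate 1, SERPING1 was 2.03 in replicate 3 and VTN was 0.938 in replicate 2. In PC3, BCL3 was 4.10 in replicate 1 and CLU was 13.5 in replicate 4.

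The PCa lines differed from BPH-1 in opposite directions for PI3, by 5.35 in PC3 and by -3.53 in DU145 on the scale of log2(FPKM + 1). Every library of each line moved that way, and this difference was not tested because these levels chose the gene. By limma in PC3 against DU145, opposite directions were called for STAT3 (-3.96 in PC3 and 0.63 in DU145 against BPH-1, adjusted p = 4.44e-08 for the difference), CEBPB (-0.79 and 1.34, adjusted p = 2.51e-05), SERPING1 (-0.38 and 0.94, adjusted p = 8.27e-06) and OSMR (-1.26 and 1.37, adjusted p = 0.00345). SERPING1 was at 0 FPKM in PC3, so it could only fall there.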

How the results depend on the processing

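The list counts, each of genes called higher or lower, moved most with the fold threshold and the filter. With an absolute log2 difference of at least 1 also required, 4429 genes were called in PC3 against BPH-1, 4894 for DU145 against BPH-1 and 3177 between PC3 and DU145, in place of 11086, 10668 and 7937. In the same order, the cytokine list then gave 14, 14 and 4, complement 2, 2 and 1, the WAP list 1, 1 and 0, and the receptors and partners 3, 1 and 0, while the factors gave 6 in PC3 against BPH-1 and the other acute-phase proteins 1 in each comparison with DU145. With a stricter filter, PC3 against BPH-1 gave 17 cytokine-list genes, 5 complement genes and 1 each in the WAP, partner and antimicrobial lists. DU145 against BPH-1 then gave 13 of the cytokine list, 1 each in the WAP and partner lists, and 0 other acute-phase and 0 antimicrobial genes, and PC3 against DU145 gave 1 complement gene and 0 WAP genes, because fewer were tested. All 0 counts of limma with this filter were also 0 at an unadjusted p under 0.05. Without a filter, the other acute-phase proteins gave 4 in DU145 against BPH-1, while between PC3 and DU145 there were 5 complement, 2 WAP and 1 antimicrobial gene. The partners in DU145 against BPH-1 gave 6 in 1 fit over the 3 lines and 5 with equal FPKM sums, where the WAP list gave 1.

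DU145 replicates 3 and 4 alone, chosen after seeing the data, gave 1 WAP gene and 5 partners in DU145 against BPH-1, and 5 complement, 1 antimicrobial and 0 WAP genes in PC3 against DU145 (1 WAP gene at an unadjusted p under 0.05). Leaving out 1 library at a time gave 2 to 5 other acute-phase proteins, 1 to 2 WAP genes and 2 to 5 partners in DU145 against BPH-1, and 3 to 5 complement genes in PC3 against DU145. The cause was not tested. Of these counts over all alternatives, 399 stayed within 1.5 times the reported one and 49 did not. Of 423 differences of the 9 genes, 421 kept their sign, and the other 2 were C3 in PC3 against DU145, at -0.08 without PC3 replicate 2 and -0.00 without DU145 replicate 3. For the 81 named list calls, a call was lost 15 times, counted once per call and alternative, and 0 changed sign. Some calls, such as OSMR in DU145 against BPH-1, were lost in several alternatives, so fewer than 15 separate calls were lost.

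The median of all genes moved from -0.126 to -0.282 with equal FPKM sums and to 0.099 with upper-quartile scaling in PC3 against BPH-1, and from -0.026 to -0.164 and 0.134 in DU145 against BPH-1. Replicate numbers did not pair the libraries (correlations of same-numbered deviations -0.668 to 0.522), and with the replicate block 10734, 10133 and 6745 genes were called. Depth limited SAA4 in all lines, the SAA genes in PC3, and CFB and PI3 in DU145, where a library held few reads.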
